A study of Mus musculus with 12 samples.

Results

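The differential N6-methyladenosine (m6A) sites between day 4 and day 0 of keratinocyte differentiation are all 2561 rows of the authors' deposited table of differential methylation, read here by the function of the genes that carry them, the number of sites per gene and the genes with sites in both directions. The false discovery rates in that table imply 36796 tested sites, so the listed sites are 6.96% of those tested, each at a false discovery rate under 0.05. They fall in 2091 genes, out of 8073 genes with at least 1 listed m6A peak or called site. The cells were primary mouse keratinocytes from newborn epidermis, grown to passage 3 on a feeder layer of mitomycin C-treated 3T3 fibroblasts in medium with 0.05 mM calcium. The day 0 group was undifferentiated, and the day 4 group had been differentiated by a shift in calcium. For each day, 3 immunoprecipitated (IP) libraries and 3 input libraries of polyadenylated RNA enter the comparison, 12 libraries in all. Nothing in the labels says that the 3 replicates of a day came from separate mice or cultures, so the spread behind the p-values may be technical. The processed tables give 1 value per site or gene and none per library, so no replicate value, standard deviation or read depth can be printed beside a site.

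m6A is a methyl group on internal adenosines of RNA, written by a nuclear complex around Mettl3, Mettl14 and Wtap, removed by the demethylases Fto and Alkbh5, and read by YTH-domain and Igf2bp proteins. In messenger RNA it lies mostly near the stop codon, in long internal exons and in 3′ untranslated regions, often within a GGAC core, and it is known to affect splicing, export, translation and decay. In m6A-seq, fragmented RNA is pulled down with an antibody and compared with its input, so a site is a stretch of transcript rather than a single base. The antibody also binds the m6Am found at the first transcribed base of many mRNAs.

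The keratinocyte label was checked against defining genes. In the authors' deposited expression table, Krt14 had a mean normalized count of 209477 and Krt5 one of 196003 over the input libraries, and Trp63, Itga6, Dsp and Perp were also listed. Sfn is not listed there but has 3 peaks on each day. Of the genes chosen to mark fibroblasts, melanocytes, and immune or endothelial cells, 2 of 23, 1 of 8 and 1 of 11 had a peak, and none had a called site. That expression table lists genes with an adjusted p under 0.05 (DESeq2), and 8 of the 23 fibroblast and feeder markers were among them, 6 higher and 2 lower at day 4. Acta2, an actin of contractile cells, had a log2 fold change of 2.97 (SE 0.12, mean count 1187) and Postn, a matrix protein, one of 3.66 (mean count 305), while Col6a1 (-2.07) and Col6a2 (-2.42) were lower. Of the melanocyte markers, Mitf (1.65) and Kit (6.14, mean count 4.74) were higher, and 4 immune or endothelial markers were listed, 3 of them higher. The part of other cell types in the methylation values was not tested. Because these are bulk samples, a change in the share of a cell type and a change per cell cannot be told apart.

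A site is called a gain here where the log fold change of the authors' deposited table is above 0 and a loss where it is below 0. The table does not state its direction, and it was read from the peak lists: of the sites that overlap a peak listed for day 4 only, 414 had a positive and 5 a negative value, and of those that overlap a peak listed for day 0 only, 29 were positive and 90 negative. A gain is therefore higher at day 4. The base of the logarithm is not given, so the values are not converted into folds. In what follows, a value in brackets after a gene is the log fold change of its site in that table, and a second value after a comma, under 0.05, is the false discovery rate. There were 1763 gains in 1438 genes (4.79% of sites tested) and 798 losses in 739 genes (2.17%).

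A group of 177 sites, each in a different gene, reached the first 50 transcribed bases of an annotated gene. Of these, 156 (88.1%) were gains, against 68.8% of all called sites. The sequences below, from RefSeq on GRCm38.p6 (the same assembly as mm10), are 30-base stretches of the transcribed strand, 5′ to 3′, inside 4 such gains and 2 such losses. They are shown as examples of transcript starts in genes named among the results, chosen as 2 gains with and 2 without the motif GGAC and 1 loss with and 1 without it, so they do not reflect how common the motif is. Capitals mark GGAC.

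Ephb3: cggctcctaccccGGACggcgagcgcacaa
Dusp1: agtgaaGGACtggcgggaggaaagcgcggt
Hspa1b: accagacgctgacagctactcagaatcaaa
Cxcl2: gcttcctcgggcactccagactccagccac
Rnd3: accgatcggaattGGACttgggaagagagg
Krt18: ctgccaccctccgcggcggaactcctgttc

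The Ephb3 stretch is chr16:21204813-21204842 on the plus strand, and the site over it gained methylation in the authors' deposited table (2.77, 1.9e-28). Ephb3 encodes an ephrin receptor tyrosine kinase. The Dusp1 stretch is chr17:26508443-26508472 on the minus strand (gain, 0.93), and Dusp1 encodes a phosphatase that switches off MAP kinases. The Hspa1b stretch, of a stress-induced Hsp70 gene, is chr17:34959209-34959238 on the minus strand (gain, 1.70). The Cxcl2 stretch, of a neutrophil-attracting chemokine gene, is chr5:90903899-90903928 on the plus strand (gain, 2.84). Among the losses, the Rnd3 stretch, of an atypical small GTPase gene, is chr2:51149076-51149105 on the minus strand (-0.98). The Krt18 stretch, of a simple-epithelial keratin gene, is chr15:102028216-102028245 on the plus strand (-1.16).

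GGAC was searched by letters in the 300-base promoter windows of the RefSeq table (250 bases before to 50 after the start). In the first 50 transcribed bases it stood on the transcribed strand in 41 of the 156 gains (26.3%) and 4 of the 21 losses (19.0%), against 18.9% of all 32851 windows taken over the same bases. On either strand, the shares were 39.1%, 23.8% and 33.3%. These are counts of letters in a window and do not place a methylated base. The start gains had a median log fold change of 1.95 and a median span of 1010 bp, so most of them extend well past the printed bases.

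Gains were larger and narrower than losses. Among finite values in the authors' deposited table, the middle 50% of gains lay between 1.179 and 2.65, and the middle 50% of losses between -1.14 and -0.63. A size under 1 was found for 66.1% of finite losses (508 sites) and 17.9% of finite gains (288 sites). A size of 3 or more was found for 297 gains and 40 losses. A further 152 gains and 30 losses are listed as infinite and have no size. The median span along the genome was 250 bp for gains and 672 bp for losses, introns included, and 370 gains (21.0%) against 69 losses (8.65%) were single 50 bp windows. Spans over 1000 bp made up 21.6% of gains and 42.1% of losses.

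**Figure D1:**
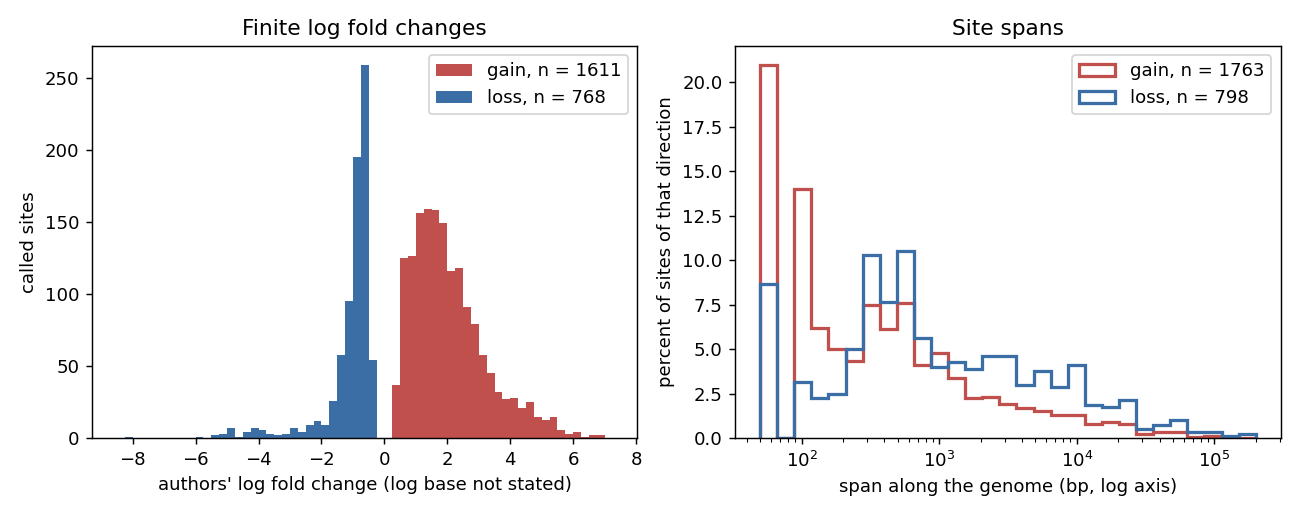
The left histogram plots the authors' log fold change (x axis, log base not stated) of the 1611 gains and 768 losses with finite values against the number of called sites, and the right one plots the span of all 1763 gains and 798 losses on a log axis as a percent of each direction. Losses pile up between -1.14 and -0.63 while gains spread out to beyond 6, and single 50 bp windows are the tallest step among gains.

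The sizes differed with the peaks that a site overlaps. Of the losses, 615 (77.1%) overlapped peaks of both days, with a median log fold change of -0.75, which is a reduced signal in a peak still listed at day 4. Of the gains, 825 (46.8%) overlapped peaks of both days (median 1.26), 414 (23.5%) a peak of day 4 only (median 2.38), and 495 (28.1%) no listed peak at all (median 3.83). The 88 losses outside listed peaks had a median of -4.06 and a median span of 50 bp. Sites outside peaks thus carried the larger values and the shorter spans in both directions, and what part the missing peak has in their values was not tested.

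Gains also lay more often near transcript ends. Of the 1757 gains that could be placed in a single RefSeq gene span, 375 (21.3%) lay within 1000 bp of the 5′ end, 634 (36.1%) within 1000 bp of the 3′ end, 52 within reach of both and 696 (39.6%) elsewhere. Of the 795 losses placed, 55 (6.92%) lay near the 5′ end, 194 (24.4%) near the 3′ end, 8 near both and 538 (67.7%) elsewhere. No test of these shares was made, since sites of a gene are not independent and spans differ between directions.

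**Figure D2:**
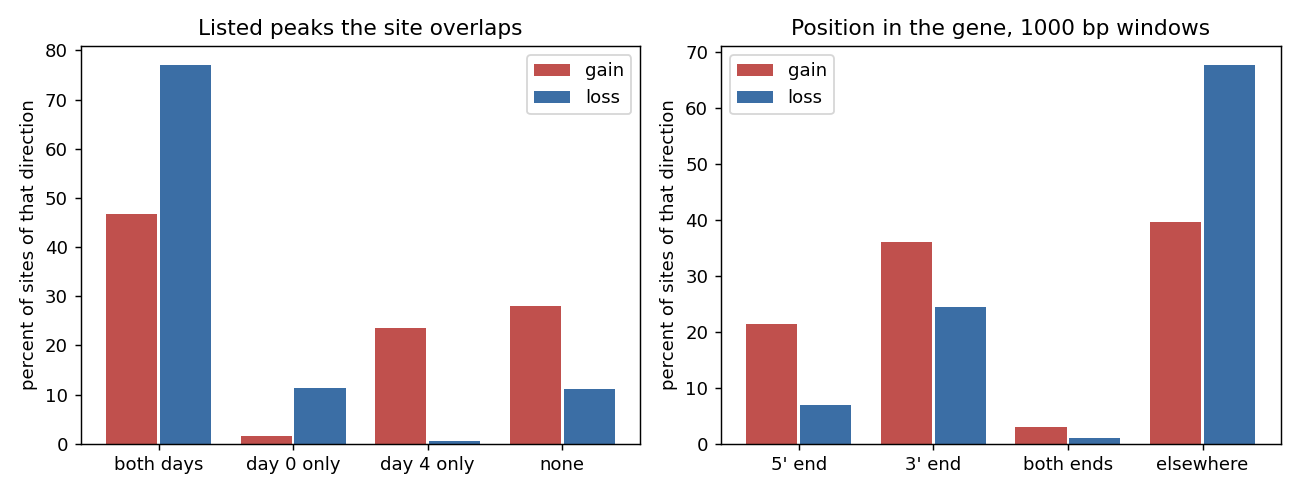
Bars give the percent of gains (red) and of losses (blue) by the listed peaks they overlap by at least 1 bp (left) and by position within 1000 bp of an annotated gene end (right). Losses sit mostly in peaks of both days (77.1%) and away from gene ends (67.7%), while gains divide among the classes.

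The gains with the lowest false discovery rates were led by Jund, which encodes an AP-1 subunit. Its single site at chr8:70699972-70700269 (mm10), 347 bp from the 3′ end of the gene, in the authors' deposited table had a log fold change of 3.44 and a false discovery rate of 2.2e-130, and it overlaps a peak of day 4 only. Junb, the gene of another AP-1 subunit, had 2 of the 10 lowest values (log fold changes 1.92 and 2.14). Ier5l, of the immediate early response family, gained 2.43 at 2.4e-40. Next came Ephb3 and Sprr1b, a precursor of the cornified envelope, whose site of 98 bp lies outside listed peaks (4.52, 1.4e-27). The others were Ajuba (1.93), a LIM protein of cell junctions and the Hippo pathway, Fam83h (1.71), a keratin-organising protein, Ppp1r37 (1.43), a regulator of protein phosphatase 1, and Wnt4 (1.53), a Wnt ligand.

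The losses with the lowest false discovery rates were led by Abca12, the keratinocyte lipid transporter that fills lamellar granules. Its losing site covers 52164 bp at the 5′ end of the gene (chr1:71362747-71414910, minus strand), and the authors' deposited table gives it a log fold change of -1.31 and a false discovery rate of 9.2e-25. A second Abca12 site, 83357 bp away, gained 2.58. The others were Mrps18b (-1.02), a mitochondrial ribosomal protein, Fam126a (-1.03), Tbl1x (-0.95), a corepressor subunit, Glrx (-1.85), a glutaredoxin, and Crkl (-1.37), a signalling adaptor. Slc1a1 (-1.15), a glutamate transporter, Tardbp (-0.88), an RNA-binding protein, Mettl2 (-1.03) and B3gnt3 (-1.05) complete the 10. All but the Glrx site, a single 50 bp window outside listed peaks, overlap peaks of both days.

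Gene groups were read against all 8073 genes with a listed peak or called site, of which 25.9% had any called site, 17.8% a gain, 9.15% a loss and 1.07% both. Several groups below had a share called close to 25.9%, and their members are named as a description only. These are the cell adhesion, actin cytoskeleton, Notch, Wnt, TGF-beta, translation, and Rnf and Trim genes. Genes of the cytoplasmic ribosome had gains and no losses. Of 66 ribosomal protein genes with a peak or site, 44 (66.7%) gained, none lost, and the median log fold change of their 46 sites was 2.04 in the authors' deposited table, where the median over all called sites was 1.33. Finite values ran from 1.15 for Rpl23 to 2.85 for Rps18, and 39 of the 46 sites overlap peaks of both days. Rps26, a protein of the small subunit, had the lowest rate (2.35, 3.6e-12), over chr10:128624579-128625247. Rpl37a (2.11, 3.8e-10) and Rpl28 (2.24, 7.6e-10), of the large subunit, followed. Ribosomal protein genes have many near-identical processed pseudogenes, so reads assigned to a single copy are uncertain. Their mean counts were high, with a median of 5045. The median was 509 over the expression table, which also holds genes without a peak or site.

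Subunits of the oxidative phosphorylation complexes did likewise. Of 57 with a peak or site, 23 (40.4%) gained and none lost, with a median of 1.89 over 25 sites. They came from several complexes. Uqcrc1 of complex III had the largest value in the authors' deposited table (3.29, 1.7e-06), with Cox5b (2.75) and Cox4i1 (2.36) of cytochrome oxidase, Ndufv1 (2.44) and Ndufs8 (2.28) of complex I, and Atp5g3 (2.15) and Atp5b (1.55) of the ATP synthase. The sites were short, with a median span of 97 bp, and 5 of 25 lay outside listed peaks.

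Called sites in genes of the mitochondrial ribosome were mostly losses, but few of these genes were called. Of 61 mitochondrial ribosomal protein genes with a peak or site, 10 (16.4%) had a called site, 8 of them a loss and 2 a gain. Over all 8073 genes, 25.9% had a called site, 9.15% a loss and 17.8% a gain. The group thus stood apart more by its few gains than by its losses. The losses were Mrps18b (-1.02), Mrpl32 (-1.34, 2e-08), Mrpl49 (-1.12 and -1.63), Mrps28 (-1.19), Mrpl20 (-0.91), Mrpl40 (-0.74), Mrps34 (-0.45) and Mrps26 (-0.39). The gains were Mrps18a (2.45) and Mrpl34 (1.98), both outside listed peaks. The median mean count of this group was 463, near that of the whole expression table.

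**Figure D3:**
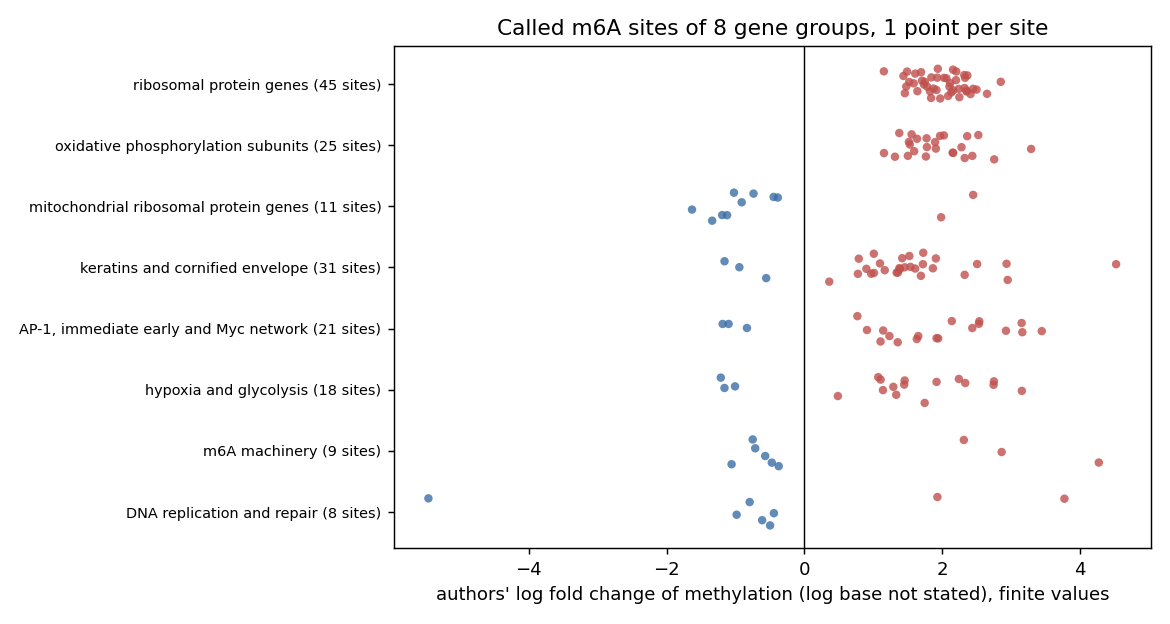
Each point is a called site with a finite log fold change (x axis, authors' value, log base not stated) in 8 gene groups, red for gains and blue for losses, with random vertical spread. Ribosomal protein and oxidative phosphorylation sites lie between 1.15 and 3.29 with no loss, while most mitochondrial ribosomal protein sites lie below 0.

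Keratins and precursors of the cornified envelope, which replaces the plasma membrane of dying keratinocytes, formed the group with the highest share of gains among the groups with 20 or more genes that are plotted. Of 31 with a peak or site, 22 (71.0%) were called, 19 with gains alone and 3 with both directions, and the median over 31 sites was 1.38 in the authors' deposited table. The basal keratins Krt5 (1.54, 2.7e-07) and Krt14 (1.52, 1.5e-05) gained, the latter 49 bp from the 3′ end of its gene. The stress-induced keratins Krt17 (1.86, 6.3e-07) and Krt6a (1.35) gained as well, and so did Krt15 (2.93, 3.7e-10), Krt13 (1.69), Krt19 (1.10), Krt7 (0.90) and Krt80 (1.72). Among envelope precursors, Sprr1a (0.79 and 1.16), Sprr2d, Sprr2h, Sprr3 (2.32), Lce1f (1.01), Scel (2.50) and Krtdap (1.42) gained. Krt18, Sbsn and Ivl had both gains and losses. Members of the Sprr and keratin families resemble each other in sequence, so the split of reads among them is uncertain.

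The list of epidermal transcription factors showed 10 genes with gains, 1 with both directions and none with a loss alone, among 39 with a peak or site (28.2% called). The 10 include Zfp36l1 (1.51, outside listed peaks), which is of the Zfp36 family of mRNA decay proteins and not a transcription factor. Klf4, required for the skin barrier, gained at 2 sites (2.36, 2.9e-07, and 1.46). Maf (2.22), Prdm1 (0.73 and 1.76), Cebpa (0.91 and 1.56), Cebpb (0.86), Zfp750 (0.56) and Ehf (1.11), which all act in late differentiation or in epithelial programs, gained too, in the authors' deposited table. Cux1, a homeodomain repressor, was the gene with both directions. The share of called genes is close to the 25.9% of all genes.

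Cell adhesion and basement membrane genes had 16 of 53 called (30.2%), 11 with gains, 3 with losses and 2 with both. Plec and Col7a1, which anchor hemidesmosomes to keratin filaments and the basement membrane to the dermis, carried many of the 31 gains. Dsp, the desmosomal plakin, has a gain listed as infinite (0.0003). The losses included Cd44 (-0.81), the hyaluronan receptor, and Fn1 (-2.98), fibronectin, a 50 bp site outside listed peaks.

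The AP-1, immediate early and Myc network genes had 14 of 25 called (56.0%), 12 with gains and 2 with losses. Besides Jund and Junb, Jun gained 1.94 (6.6e-07) and Fos 2.53 (1.5e-10) in the authors' deposited table, the latter outside listed peaks. Ier2 (1.10 and 2.54) and Ier3 (1.35 and 3.16), immediate early genes, each gained at 2 sites. Zfp36 (0.77 and 1.23) and Zfp36l2 (1.65 and 2.92), which encode proteins that direct decay of AU-rich mRNAs, gained as well. Mnt (1.63) and Mxd1 (0.91), partners of Max that oppose Myc, gained, and Mga, a Max partner too, lost at 2 sites (-0.84 and -1.10).

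Hypoxia and glycolysis genes had 16 of 24 called (66.7%), 13 with gains, 1 with a loss and 2 with both. Enzymes along the glycolytic chain gained: Hk1 (1.14), Pfkl (1.74), Aldoa (1.45), Pgam1 (1.45), Eno1 (1.33), Pkm (1.10) and Ldha (2.33, 0.00011), as did the glucose transporter gene Slc2a1 (1.29). Vegfa, the angiogenic growth factor, gained 1.07 (3.6e-05) in the authors' deposited table. Egln2 (2.74) and Egln3 (2.75), prolyl hydroxylases that mark HIF for destruction, gained, and Vhl, the ligase subunit that recognises hydroxylated HIF, lost (-1.01, 6.2e-05).

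Heat shock and chaperone genes had 13 of 37 called (35.1%), 10 with gains and 3 with losses, and a median of 2.13. The constitutive Hspa8 (2.36, 1.2e-05), the mitochondrial Hspa9 (1.91 and 2.30), the cytosolic Hsp90ab1 (1.45) and Hsp90aa1 (1.49 and 2.61), and the small chaperone Hspb1 (1.21 and 2.13) gained in the authors' deposited table. The losses were in the J-domain co-chaperones Dnajb4 (-0.77, 2.2e-05) and Dnaja2 (-0.58) and the cofactor Bag2. Another J-domain gene of the list, Dnajc5, gained (4.68, 0.0038) at a 50 bp site. Actin cytoskeleton and small GTPase genes had 18 of 66 called (27.3%), 17 with gains, 1 with both and none with a loss alone. Rhob gained at 3 sites (2.13, 2.8e-15 for the lowest false discovery rate), and Wasl (2.60, 6.4e-07), Vasp (2.21), Myh9 (2.89), Actn1 (2.17), Ezr (1.49 and 1.89) and Srf (0.68), the transcription factor of many actin genes, gained too.

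In signalling genes both directions were present. In the EGF receptor, RAS-MAPK and PI3K list, 21 of 67 were called (31.3%), 15 with gains, 4 with losses and 2 with both. Hbegf, a ligand of the receptor, gained 2.99 (0.002 in the authors' deposited table), Map2k1 5.78 and Mapk3, the kinase ERK1, 1.37 and 2.25. Irs2, an adaptor of the insulin receptor, gained at 4 sites (0.53 to 2.96). Phosphatases of MAP kinases went both ways: Dusp1 (0.93 and 5.71), Dusp3 (2.94), Dusp4 (0.66), Dusp5 (1.03) and Dusp7 (0.59) gained, and Dusp16 lost at 2 sites (-0.83 and -2.67). The sites with 5.71, 2.94 and -2.67 were short and lay outside listed peaks. Sos2, an exchange factor that loads RAS (-1.07, 4.3e-05), Rptor (-1.48), the mTORC1 scaffold, and Lrig1 (-2.44, outside listed peaks), a brake on the EGF receptor, lost.

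Among developmental pathways, the shares called for Notch, Wnt and TGF-beta genes were close to the 25.9% of all genes. Of 21 Notch genes, 6 (28.6%) were called, 4 with gains and 2 with losses. The ligands Jag2 (1.09, 2.3e-06) and Dll1 (0.71) and the receptor Notch3 (1.07) gained in the authors' deposited table, and Maml1 (-0.59), the coactivator, and Numb (-1.53), the inhibitor, lost. Of 33 Wnt genes, 10 (30.3%) were called, 7 with gains, 2 with losses and 1, Wnt10a, with both. There were gains for the ligands Wnt4 and Wnt7b (2.81, 2.9e-06) and the coactivator Bcl9l (1.08, 3.4e-14), and losses for the co-receptor Lrp6 (-1.02, 2.7e-05) and the scaffold Axin1 (-0.58). Of 29 TGF-beta and BMP genes, 8 (27.6%) were called, 5 with gains and 3 with losses. Ski (1.62, 3.4e-09), a corepressor of Smads, and Smad2 (3.03) gained, while Skil (-0.67) and the BMP-responsive Smad1 (-0.70) lost. Of 25 Hippo and YAP genes, 9 (36.0%) were called, 4 with gains, 2 with losses and 3 with both: Ctgf, a YAP target, Tead4, a DNA-binding partner of YAP, and Fat1, an upstream cadherin, each had a gain and a loss.

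Splicing and RNA-binding genes had 20 of 49 called (40.8%), 15 with gains, 4 with losses and 1 with both, and a median of 2.56. Srsf2, a splicing activator, gained 4.05 (1.2e-07), and Malat1, a nuclear long noncoding RNA, 1.68 (8.2e-08) in the authors' deposited table, while Tardbp and Mbnl2 (-1.40, 5.3e-07) lost. Translation and ribosome biogenesis genes had 13 of 45 called (28.9%), 10 with gains and 3 with losses. There were gains for Fbl (3.85, 1.9e-06), which methylates ribosomal RNA, Pabpc1 (2.34, 1.3e-05), the poly(A)-binding protein, and Eif4g1 (0.94), and losses for Larp4 (-0.79) and Eif4g3 (-0.77). The mRNA decay and microRNA list was the reverse in its balance, with 13 of 40 called (32.5%), 5 with gains, 7 with losses and 1 with both. Deadenylase subunits Cnot2 (-0.71) and Cnot7 (-0.81), the nonsense-mediated decay factors Upf2 (-0.83) and Upf3b (-1.55, 1.3e-08), the silencing scaffold Tnrc6a (-0.50) and the decapping factor Edc3 (-0.91) lost. Upf1 (1.38) and Smg5 (3.44, a 50 bp site) gained, and so did Exosc10 (3.41) and Xpo5 (5.62, 0.00011), both outside listed peaks.

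The m6A machinery itself had 8 of 18 genes called (44.4%), 3 with gains and 5 with losses, with a median of -0.42 over 10 sites. Of the writer complex, Wtap lost at 2 sites (-0.75, 6.5e-05, and -1.06) and Zc3h13 at 1 (-0.57) in the authors' deposited table, and Rbm15b, which brings the complex to RNA, gained 2.31. Of the erasers, Fto lost (-0.71, over a site of 128137 bp) and Alkbh5 gained (2.86, outside listed peaks). Of the readers, Ythdf1 (-0.47) and Ythdf2 (-0.37) lost, with false discovery rates of 0.025 and 0.047, and Igf2bp2 gained at 2 sites of 50 bp outside listed peaks, 1 of them infinite. At a false discovery rate under 0.01, 2 of these 10 sites were called, the first Wtap site and the infinite Igf2bp2 site. Of all 2561 called sites, 1362 passed that rate (3.7% of the sites tested).

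Chromatin genes were called often and in both directions. Of 107 histone modifiers and remodellers, 45 (42.1%) were called, 25 with gains, 17 with losses and 3 with both. Kdm6b (1.70, 5.9e-18), a demethylase of the repressive H3K27 mark, and Dot1l (1.81, 1.5e-10), the H3K79 methyltransferase, gained in the authors' deposited table. Suz12 (-0.74, 1.9e-05), a Polycomb subunit, and Setd2 (-0.99, 2.1e-05), the H3K36 methyltransferase, lost. DNA replication and repair genes were called less, 9 of 50 (18.0%), with 2 gains and 7 losses. Mcm6 (-0.44) and Mcm7 (1.93), subunits of one helicase, differed in direction, and Orc2 (-0.61), Rif1 (-0.50) and Lig4 (-0.98) lost. Parp1 gained 3.77 outside listed peaks. Of 43 cell cycle genes, 9 (20.9%) were called, 7 with gains, 1 with a loss and 1 with both. There were gains for Ccnd1 (2.09, 7.3e-07), the G1 cyclin, and Top2a (2.45), both outside listed peaks, and a loss for the mitotic motor Kif11 (-0.86).

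In metabolism, 12 of 35 genes of the Atf4 and amino acid list (34.3%) were called, 8 with gains, 2 with losses and 2 with both. Slc7a5, a leucine importer, gained at 3 sites (1.58, 3.23 and 3.50), and Atf5 (1.90 and 4.94, and 1 infinite value), Asns (1.37 and 2.03), Slc6a9 (1.00 and 2.76) and Ddit3 (1.02) gained too in the authors' deposited table. Eif2ak2 (-1.46), a kinase of the stress response, and Psat1 (-0.60), of serine synthesis, lost. Aldh18a1, of proline synthesis (loss of -0.38 beside a gain), and Slc38a2 (2.48 and -0.36), a glutamine importer, had both directions. All 3 Slc7a5 sites overlap peaks of day 0 only, against the usual pattern for gains, and 6 of the 20 sites of the list do so. Most of these transcripts were lower at day 4. The median log2 fold change of expression was -2.73 over the 29 members listed in the expression table. Over the 11 called members listed, it ran from -4.57 (Slc7a5) to 0.72 (Eif2ak2). The part of this change in the methylation values was not tested. Of 37 cholesterol and fatty acid genes, 15 (40.5%) were called, 11 with gains and 4 with losses, with a median of 1.84. Gains were called for the enzymes Mvd (5.98), Nsdhl (4.05), Msmo1 (2.51) and Sqle (2.41) and for the regulators Srebf1 (1.84) and Srebf2 (1.68) in the authors' deposited table. Losses were called for the enzymes Cyp51 (-1.05), Lss (-0.84) and Scd2 (-1.07) and for Insig2 (-2.71), which holds back Srebf processing. Of 24 p53 pathway genes, 9 (37.5%) were called, 6 with gains, 2 with losses and 1, Perp, with both. The gains included Bbc3 (2.02, 1.3e-14), Plk2 (2.31) and Sfn (0.76), and the losses were Mdm4 (-0.55), a brake on p53, and Gadd45a (-0.52), a stress response gene.

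Among families of genes named by symbol, the shares called ran from below to above the background. The Map kinase cascade family (Map2k, Map3k, Map4k and Mapk symbols) had 12 of 26 called (46.2%), 8 with gains and 4 with losses, among them Map2k3 (5.24, 0.00015), Map2k7 (0.76), Map3k2 (-0.75) and Map4k5 (-2.34). Zinc finger genes of the Zfp and Zkscan families had 47 of 198 called (23.7%), 26 with gains, 20 with losses and 1 with both, led by Zfp282 (2.39, 1.3e-18) and Zkscan3 (-1.10). Ubiquitin ligases of the Rnf and Trim families had 20 of 70 called (28.6%), 11 with gains and 9 with losses, among them Rnf39 (2.75, 9.3e-11) and Trim11 (-1.13, 2.3e-08) in the authors' deposited table. Solute carriers had 26 of 129 called (20.2%), 16 with gains, 8 with losses and 2 with both, led by the creatine transporter Slc6a8 (5.48, 7.9e-14). The Rab and Tbc1d genes of membrane traffic had 6 of 62 called (9.68%), and Tmem genes 15 of 100 (15.0%).

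**Figure D4:**
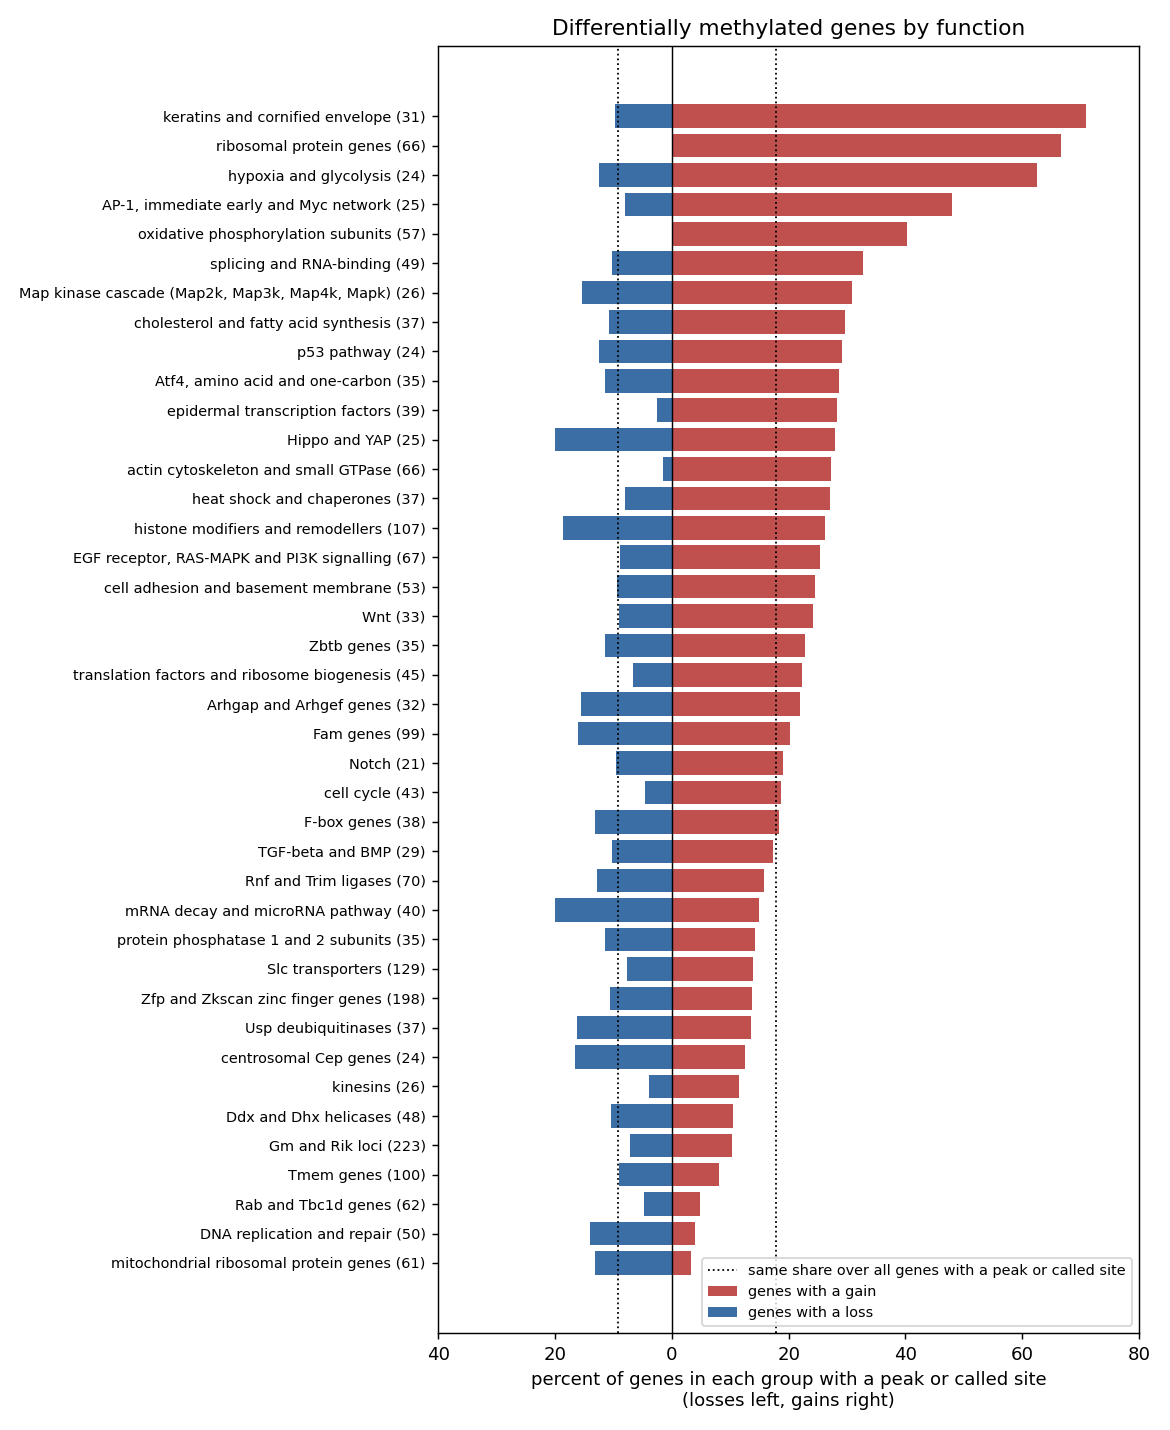
Bars give, for each group with at least 20 genes that carry a listed peak or called site (number in brackets), the percent of those genes with a gain (right, red) and with a loss (left, blue), and dotted lines mark the same shares over all such genes, 17.8% and 9.15%. Keratins and cornified envelope (71.0% with a gain), ribosomal protein genes (66.7%) and hypoxia and glycolysis lie farthest to the right, and mitochondrial ribosomal protein and DNA replication genes have gain shares below the line.

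The share of genes with a gain rose with RNA abundance, while the share with a loss did not rise throughout. When the 5300 genes that have a peak or site and are listed in the expression table, all of them called as changed there, were put in 4 equal parts by mean normalized count, a gain was found in 6.42% of the lowest part, 13.6% and 20.8% of the middle parts and 35.5% of the highest part, which begins at a mean count of 1782. A loss was found in 6.34%, 9.28%, 11.2% and 8.30%. The median mean count was 1624 for genes with a gain and 973 for genes with a loss. It was 509 over the whole table, which also holds genes without a peak or site, while the lower 2 of the 4 parts ended at 858. For gene groups, the median mean counts cover only members listed in the expression table, while gain shares cover all members with a peak or site. The medians were 5946 for keratins and envelope genes and 2706 for hypoxia and glycolysis. Oxidative phosphorylation subunits had 1117 over 35 listed members, and 23 of 57 gained. Cell adhesion genes had 6735 over 44 listed members, with 13 of 53 gaining. Translation and ribosome biogenesis genes had 3230 over 38, with 10 of 45 gaining. The part of abundance in the gene groups' shares was not tested.

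Most genes had a single called site. Of the 2091 genes, 1728 had 1 site, 297 had 2, 44 had 3 and 22 had 4 or more. Of the 1352 genes with gains alone, 227 (16.8%) had 2 or more sites, and of the 653 with losses alone, 50 (7.66%) had, with at most 3. Among the 22 genes with 4 or more sites, 20 had gains alone, 2 both directions and none losses alone. Sites of a gene share its reads and are not independent.

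Plec, which encodes plectin, the linker between intermediate filaments and hemidesmosomes, had 11 gains from 0.68 to 3.68 in the authors' deposited table. They lie between 50 and 23793 bp from the 3′ end of the gene (chr15:76171024-76197995), and 3 lie outside listed peaks. Its neighbour by function Eppk1, epiplakin, had 7 gains from 0.48 to 1.45, each in a listed peak. Col7a1, the anchoring-fibril collagen, had 6 gains from 0.98 to 4.06, and Pcdh1, a protocadherin, 5 gains from 0.55 to 1.30. Kmt2d, an H3K4 methyltransferase, had 5 gains from 0.54 to 3.10, of which 4 lie in peaks of both days.

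Hspa1a (6 gains, 1.20 to 6.54) and Hspa1b (5 gains, 0.78 to 3.29) encode stress-induced Hsp70 and are near-identical copies, so the authors' counting could split their reads and the values are uncertain. All 5 Ifrd1 sites, of a gene for a transcriptional regulator, lie outside listed peaks, with finite values from 3.60 to 4.58 and 2 infinite in the authors' deposited table. Fam83h had 4 gains (0.71 to 1.71), each in peaks of both days. Asprv1, a protease that processes filaggrin in the upper epidermis, also had 4 gains (1.28 to 2.51), 3 of them outside listed peaks.

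Both directions occurred in 86 genes, with 101 gains and 93 losses. In 67 of them there was 1 gain and 1 loss, and 19 had 3 or more sites. No gain overlapped a loss of the same gene. The median distance between the nearest gain and loss was 4144.5 bp along the genome, with 23 genes at 1000 bp or less and 1, Cpsf7, of a cleavage factor, at 49 bp. The gain lay nearer the 3′ end of the gene in 55 genes and the loss in 31. The gains were short (median span 149 bp, 38 of them of 50 bp) and the losses long (838 bp, 6 of 50 bp). Of the gains, 41 lay outside listed peaks and 35 in peaks of both days, while 75 losses lay in peaks of both days. In 25 genes a gain and a loss both had a false discovery rate under 0.01.

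The largest finite gap was in Setd7, a lysine methyltransferase gene, where a 50 bp site lost (-5.21, 0.028) and a site 2186 bp away gained 1.78. Car12, a carbonic anhydrase, gained 4.93 at a 50 bp site outside listed peaks and lost (-0.93, 0.0004) at one in peaks of both days. Ankrd12 (4.92 and -0.83), Zfp664 (5.02 and -0.61), Prr14l (4.08 and -1.31) and the RNA helicase Ddx5 (4.71 and -0.94) had the same form, a gain of 50 or 99 bp beside a loss in peaks of both days. Lpin2 (0.64 and -4.91) was the other way round, with a 50 bp loss outside listed peaks. Tmem199 gained 2.11 and lost (-2.79), with both sites outside listed peaks. Igf1r, the IGF-1 receptor, gained 0.92 and 4.85 and lost (-0.60) over 161087 bp. All are values of the authors' deposited table.

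**Figure D5:**
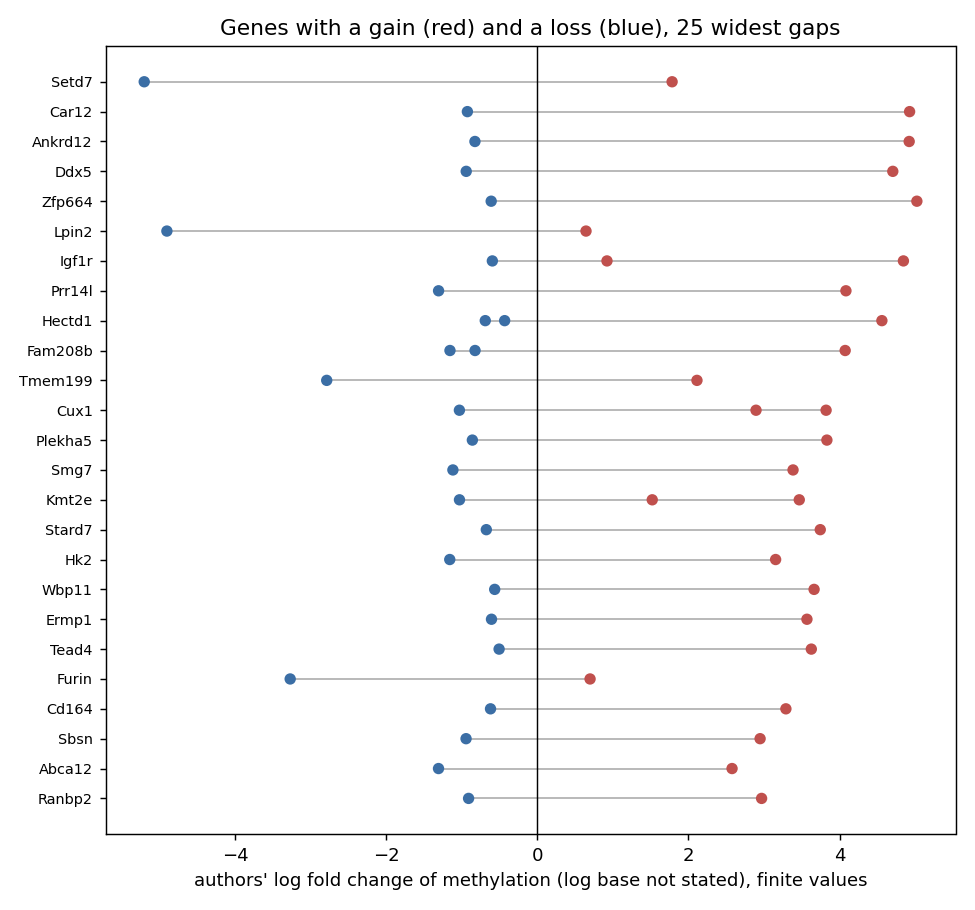
Each row is one of the 25 genes with the widest gap between a gain (red) and a loss (blue), and the x axis gives the authors' finite log fold change of every called site of that gene (log base not stated). In most rows the gain is far from 0 and the loss is near -1, and Setd7, Lpin2, Tmem199 and Furin have their loss farther out.

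Several epidermal genes were among the 86. Ivl, involucrin, an early envelope precursor, lost (-0.56, 0.00013) near its 5′ end and gained 0.36 and 1.34 near its 3′ end in the authors' deposited table. Krt18 lost at its start, where the printed sequence lies (-1.16, 0.0048), and gained 0.97 (0.0015) near its 3′ end, 3561 bp away, both sites 100 bp long and in peaks of both days. Sbsn, suprabasin, gained 2.95 (2.2e-12) at a 50 bp site near the 3′ end and lost at a site that reaches its annotated start (-0.94, 0.0096). Perp and Dsc3, of the desmosome, had both directions too. Rnd3 lost at its start (-0.98, 1.2e-05) and gained 1.02 toward its 3′ end, where a second loss (-0.58, 0.048) lay 198 bp from the gain. Ctgf had its loss (-0.60, 0.042) between 2 gains, of 2.60 (1.7e-09) near its 5′ end and of 1.14 (0.048) 50 bp from its 3′ end.

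Hk2, the first enzyme of glycolysis, lost near its 5′ end (-1.16, 1.4e-07) and gained 3.15 30816 bp away, outside listed peaks. Pgk1, a later enzyme, lost near its 5′ end (-1.21) and gained 1.92 near its 3′ end. Ccnd2, cyclin D2, gained 1.07 (0.0011) and lost (-0.66, 0.00029) 20364 bp apart. Neat1, the scaffold RNA of paraspeckles, had 3 gains (1.64, 1.65 and 1 infinite) and 2 losses (-2.15 and 1 infinite) in the authors' deposited table, and both losses were 50 bp sites outside listed peaks.

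The expression comparison uses the same 6 input libraries as the methylation comparison, so values are given side by side and nothing is read from how they vary together. In the authors' deposited expression table, 53.5% of the 14924 genes tested had an adjusted p under 0.05 (DESeq2), and 1011 of the 1438 genes with a gain and 466 of the 739 with a loss were listed. The log2 fold change of expression ran from -0.98 (Rpl3) to 0.42 (Rpl37a) over the 34 ribosomal protein genes with a gain that are listed. It ran from -1.73 (Krtdap) to 4.68 (Scel) over keratins and envelope genes, so gains occurred in transcripts listed as higher and as lower at day 4. Krt15 gained m6A with an expression value of 4.57, and Slc7a5 gained it with one of -4.57. Abca12, with the lowest false discovery rate among losses, had -1.77, and Glrx, another loss, had 2.24. For Jund the value was 0.93 and for Fos -1.84, both with gains.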

How the data were processed

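Polyadenylated RNA was fragmented by sonication and m6A-IP and input libraries were made with a stranded kit, per the labels' protocols. HISAT2 2.1.0, DESeq2 1.18.1 and mm10 are named in the submitters' processing notes; the sources used here name neither a peak caller nor the test of differential methylation. The authors' deposited tables hold, per differential site, a log fold change of unstated base (used as a score), with its p-value and false discovery rate, per day a list of peaks, and per gene a mean normalized count (signal), a log2 fold change and an adjusted p-value. No file gives values per library, so depth is unknown and no model was refitted; 0 per-sample columns were left unused. Computed here with Python 3.11.15 and pandas 2.3.3 were site direction, spans, overlap with peaks (at least 1 bp, same strand), distance to RefSeq GRCm38.p6 gene ends (2552 of 2561 sites placed, 99.6%), sites per gene, and counts over 26 gene lists and 21 symbol families. The number of sites tested was inferred from the Benjamini-Hochberg relation between p-value and false discovery rate, by code tested on simulated data. Of the called sites, 1955 lay in genes matched to the promoter table. Named genes are the 10 gains and 10 losses with the lowest false discovery rates, the 10 genes with most sites, the 12 genes with the widest finite gap between directions, and up to 3 sites per direction of a list or 2 of a family, with mixed-direction genes of the lists. Further members were named from the lists after their values were seen, and some genes that the rule names are not reported here. The lists and rules were chosen with earlier results of these data known. Alternatives changed the false discovery rate, the size, the infinite values, the peak overlap, the span and the end window.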

Additional observations from a re-analysis of the deposited data

How the results depend on the processing

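The 1362 sites at a false discovery rate under 0.01 (2561 at 0.05) were the lowest count of sites among the alternatives run. Gains were 68.8% of sites, 72.5% at that stricter rate, 83.6% at a size of at least 1, 64.1% inside listed peaks, 74.96% without spans over 1000 bp, and 66.9% with 1 site per gene. Genes with 2 or more sites fell from 363 to 157 at the stricter rate and 202 at a size of at least 1. Mixed-direction genes, 86, became 25 at the stricter rate, 28 at a size of at least 1, 47 inside listed peaks and 42 without long spans. Genes with a gain at the stricter rate were 13 of 22 for keratins and envelope, 8 of 15 for hypoxia and glycolysis, and 14 of 23 for oxidative phosphorylation; ribosomal protein genes stood at 39 of 44. Gains near the 5′ end (21.3%) were 18.4% with a 500 bp window, 16.3% without long spans and 19.2% at the stricter rate; gains near the 3′ end (36.1%) were 30.2% and 42.0% under the first 2. Losses near the 5′ end (6.92%) were 3.70% without long spans, and those near the 3′ end (24.4%) 16.4% and 32.9%. Gains outside peaks (28.1%) were 45.2% when at least 50% of the site had to overlap, 31.7% without long spans and 22.4% at the stricter rate, and losses outside peaks (11.03%) were 27.6%, 17.3% and 6.95%. Of 320 other list counts, 215 stayed within 1.5 times and 105 were lower; each alternative keeps fewer sites. No paired analysis was possible because the files hold no values per library, so neither the replicate block nor leaving out a replicate was run. Depth, and with it the precision of a single site, is unknown.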

Other observations

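Further gene groups were looked up after the other results were seen, so their counts are descriptions. Over all 8073 genes with a peak or called site, 25.9% had any called site, 17.8% a gain and 9.15% a loss. In the authors' deposited table, 8 of 14 genes of the vacuolar proton pump with a peak or called site gained m6A and none lost, with values from 1.58 (Atp6ap1) to 3.19 (Atp6v0a1) and a median of 2.03. Of 37 proteasome subunit genes, 11 (29.7%) were called, close to the 25.9% of all genes. Of these, 10 gained, among them Psma2 (3.70), Psmc1 (2.83) and Psmc5 (2.55), and Psmd10 lost (-4.80). Of 10 tubulin genes, 5 gained and none lost. Tubb5 gained at 2 sites (1.33 and 1.43), and Tubb4b (1.15), Tuba4a (1.53), Tubb6 (1.73) and Tubb2b (2.50) at 1 each. Among 9 chemokine and interleukin-1 genes, the neutrophil chemokines Cxcl2 (2.84), Cxcl3 (1.56) and Cxcl5 (1.78) gained. Of 18 mitochondrial import genes, 5 (27.8%) were called, with losses for Timm9 (-0.83), Timm17a (-0.81) and Tomm5 (-0.63) and gains for Tomm6 (2.37) and Tomm70a (infinite). The other groups looked up ran from 14.3% called (aminoacyl-tRNA synthetases, 4 of 28) to 28.6% (serpins, 4 of 14, and annexins, 2 of 7).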
